A study of Arabidopsis thaliana with 6 samples.

Results

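JAGGED (JAG) binding sites that recurred in all 3 replicate peak lists, with a summit over 1000 bp from any protein-coding gene, are described here. They are called distal sites and numbered 228 of 869 recurrent sites, which were in turn 869 of 3683 sites found in at least 1 list. A site is the union of overlapping peaks (overlap of at least 1 bp) of the 3 lists. In each list the peak with the best score was taken, and the middle one of the 3 summit positions stands for the site. Only this summit had to lie beyond 1000 bp, and the peaks of a site can reach nearer to a gene or into it. Members were chosen by measured peak positions, that is by recurrence and by distance of the summit from genes in the RefSeq table of assembly TAIR10.1, so that both are descriptions and not findings. Score served only to pick the peak that gives the summit in each list. Neither its level, nor peak width, nor the identity of the neighbouring genes was used to part distal sites from other recurrent sites.

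The samples were 3 of JAG-GFP and 3 of wild type. The JAG-GFP plants were jag-2 mutants that carried the transgene JAG:JAG-GFP, a fusion driven by the JAG promoter, and the wild type was Landsberg erecta without a tag. The tissue was inflorescence tips with unopened buds only, from plants grown in 16 h of light at 18 °C and 8 h of dark at 20 °C. Chromatin was sheared to about 500 bp and precipitated with beads against green fluorescent protein, so that wild-type plants show what the beads bring down without a tagged protein. The promoter limits the signal to cells in which it is active, in tissue that also holds other cells. Replicates carry numbers in the labels, but their origin from separate plants is not stated, and p-values may therefore measure technical spread only.

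JAG is a zinc finger protein of the C2H2 type. It promotes the growth of lateral organs, in flowers above all of sepals and petals. Many genes that control plant development have their regulatory DNA spread over long intergenic stretches, and a site in such a stretch has a gene on either side as a possible neighbour. For this reason the next protein-coding gene on both sides was looked up for each distal site, and where a site is described by a protein-coding gene that is not the nearer one, the nearer one is named too. The gene table holds no strand, so whether a site lies before or behind a gene was not analysed here.

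Replicates 1, 2 and 3 entered with 2376, 1960 and 2127 peaks. Chromosome 1 past position 23827070 was left out, because the third list ends there. Each peak has the authors' own score, whose scale is unknown here. The lowest scores were 1.86, 1.89 and 1.87 and the medians 2.04, 2.08 and 2.12 in the same order, which is kept wherever 3 scores follow each other. By their own summits, 460, 393 and 466 peaks of the lists were distal, or 20.4% ± 1.32 (SD, n = 3 lists). Of 651 distal sites found in at least 1 list, 228 (35.0%) were in all 3, beside a background of 23.6% for all sites (24.3% of 1690 flanking ones and 17.1% of 1342 inside genes). Recurrence is part of the choice of members, so nothing is read from these shares.

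The highest distal site lay between WES1, a GH3 gene whose product joins auxin to amino acids, and AT4G27270. It covered chromosome 4 from 13657755 to 13660176 (TAIR10), and its scores were 6.48, 6.53 and 8.32. All 3 values were far above the median of their list, and only 2 of all 869 recurrent sites had a higher mean score. The site of second rank lay 2562 bp from PRS, a WOX homeobox gene that acts at the margins of lateral organs. This second site had less signal in replicate 2 than in the others. Its scores were 6.60, 5.02 and 7.29, over chromosome 2 from 12259149 to 12260058.

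KNAT6, a KNOX homeobox gene of the shoot meristem and organ boundaries, was one neighbour of the next site. The other was AT1G23390, which was nearer, at 1652 bp against 4662 bp. This site covered chromosome 1 from 8306358 to 8307897 and had scores of 6.07, 5.50 and 6.90. Between KRP2, an inhibitor of cyclin-dependent kinases, and AT3G50640 a site on chromosome 3 from 18801965 to 18804013 had scores of 5.59, 5.70 and 6.39. Its summit lay 1044 bp from KRP2 and 1026 bp from AT3G50640, and thus close to the limit of 1000 bp on both sides. The site as a whole ran into AT3G50640. A site between SYD, a chromatin remodeller, and LOG1, an enzyme that activates cytokinin, followed with 5.42, 4.94 and 6.11. It stood well away from both, at 3543 bp from SYD and 4201 bp from LOG1.

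The next sites varied in how even they were between lists. The site between TCP5, of the TCP family that restrains cell proliferation in leaves and petals, and the nearer AT5G60980 had scores of 3.61, 4.94 and 6.11. The site between AT3G50650 and DWF4, a gene of brassinosteroid synthesis and the farther of the pair at 4127 bp against 1579 bp, had 4.11, 4.59 and 5.66. The one between SHM4 and HOG1, both enzymes of one-carbon metabolism, had 3.56, 4.99 and 5.76. In these 3 sites replicate 1 was lowest and replicate 3 highest. BOP1, a co-activator that marks organ boundaries, lay 2719 bp from a site with 4.16, 4.10 and 5.45. A site between AT1G28630 and AT1G28640, at rank 12, had 4.32, 4.25 and 4.11, the smallest spread of the first 20 (SD 0.11). Its ranks among the recurrent sites of each list were 14, 19 and 46, so close scores did not mean close ranks.

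The remaining sites of the first 20 had mean scores from 3.44 ± 0.41 to 4.30 ± 0.66 (SD, n = 3 lists). Their neighbours included HSF A4A, a heat shock factor, with BEH3, a relative of the brassinosteroid factor BES1, on the other side. They also included IPT2, a tRNA isopentenyltransferase, WRKY15, a transcription factor gene, SMXL2 (AT4G30350), of a family in strigolactone and karrikin signalling, and BRG1, a RING finger gene related to BOI. Replicate 3 gave the highest score in 19 of the 20 sites and replicate 1 in 1.

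**Figure D1:**
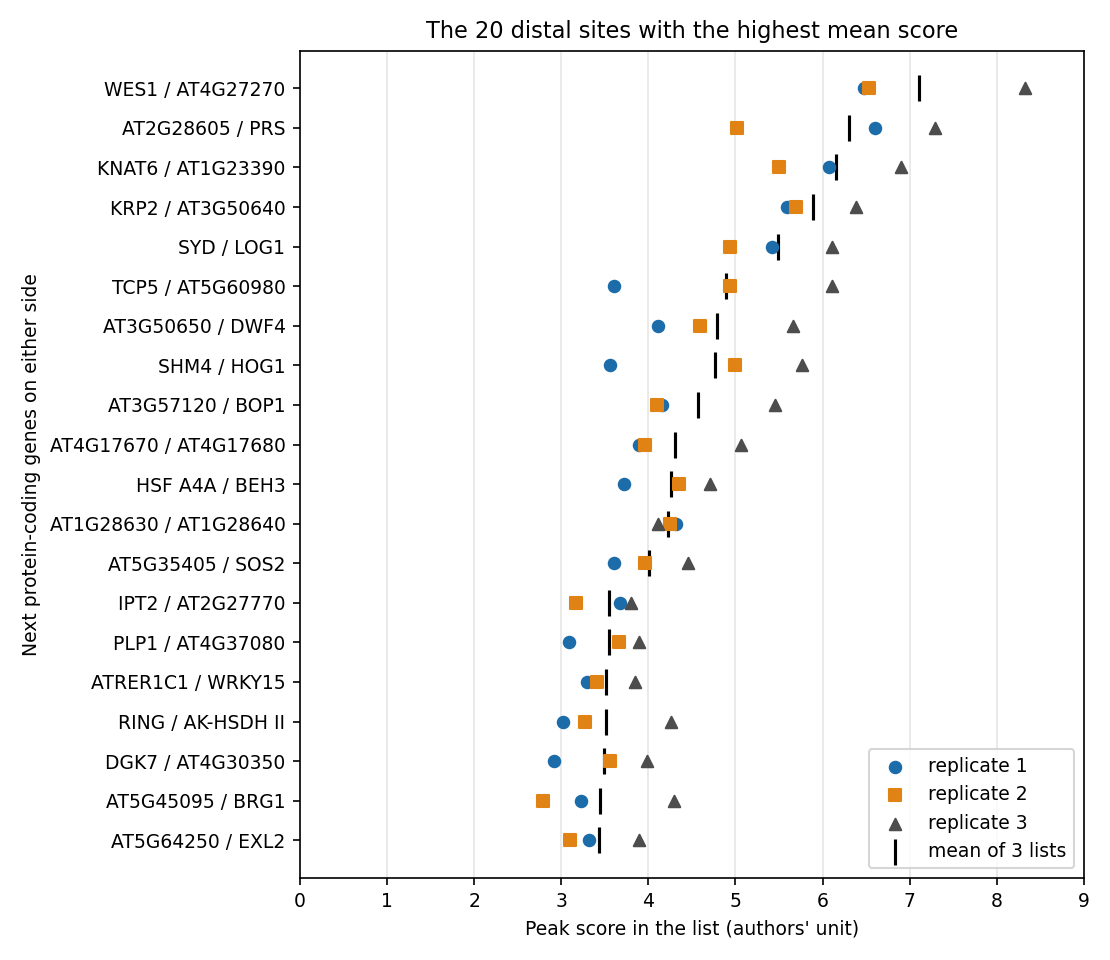
Peak scores of the 20 distal sites with the highest mean score, with the score on the horizontal axis (authors' unit) and 1 row per site, named by its next protein-coding genes. Circles, squares and triangles are replicates 1, 2 and 3 and the bar is their mean; the site next to WES1 is at the top with 6.48, 6.53 and 8.32.

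KRP2 had more distal sites around it than any other gene of the 12 gene lists compared. Besides the high site on one side, 2 distal sites lay in the long gap on its other side, between AT3G50620 and KRP2. The nearer one, 1327 bp from KRP2 and at -3.66 kb from the high summit (chromosome 3, 18798033 to 18799409), had scores of 1.93, 3.07 and 3.60. The scores were far apart there, with replicate 1 near the lowest score of its list, and the 3 summits spanned 633 bp. The farther one, 9907 bp from KRP2, 3447 bp from AT3G50620 and at -12.24 kb (18788341 to 18790844), had 2.26, 2.13 and 2.55. Its 3 summits spanned 784 bp, and a second peak of replicate 1, closer to the summits of the other lists, had 2.04. Beyond AT3G50640, a recurrent site within 1000 bp of AT3G50650 lay 3.31 kb from the high summit on the other side (18804931 to 18806456), with 2.53, 2.82 and 3.20. The site next to DWF4, at 7.18 kb, closed the row. Thus 4 distal sites and 1 flanking site stood between -12.24 and 7.18 kb, and the high site had 3 other recurrent sites within 10 kb.

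**Figure D2:**
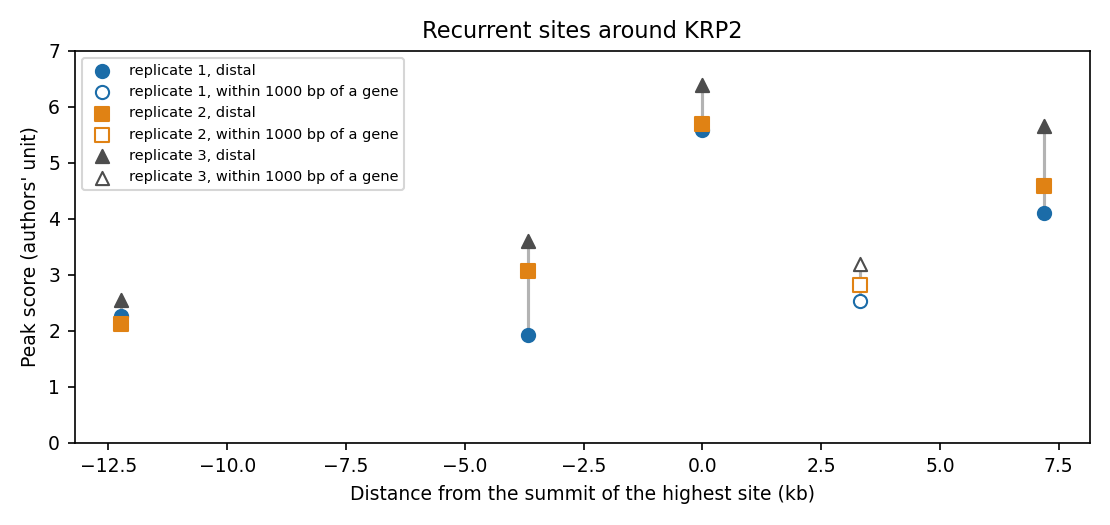
Peak scores of recurrent sites around KRP2 against the distance of their summit from that of the highest site (kb). Filled symbols are distal sites, open symbols a site within 1000 bp of a gene, and shapes the replicates; the highest site has 5.59, 5.70 and 6.39, and the one at 7.18 kb has 4.11, 4.59 and 5.66.

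Crowding of this kind was seen at few places. Of the 228 distal sites, 146 (64.0%, 95% Wilson interval 57.6 to 70.0%) had no other recurrent site within 10 kb, against 464 of 641 other recurrent sites (72.4%, 68.8 to 75.7%). There were 6 distal sites with 3 others in that distance, against 3 such sites among the others. Of these 6, 2 lay next to KRP2 and 3 in the gap between BOI (AT4G19700), a RING finger gene, and the aspartate pathway gene AK-HSDH II. The last lay beside RLK (AT5G67280). The intervals cover counting error only, and no test of the difference was made, since sites of 1 stretch are counted several times.

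In all, the 228 sites occupied 212 gaps between neighbouring genes. A single site was found in 199 gaps, and 13 gaps held 29 sites together. The gap between BOI and AK-HSDH II held 3, with scores of 2.62, 2.44 and 2.34 for the one nearest to BOI, 3.02, 3.27 and 4.26 for the next and 2.69, 2.67 and 2.70 for the last. The gap between GATA13 and ARF10 also held 3, with steps of 1191 and 3158 bp between summits. ARF10 encodes an auxin response factor under control of miR160. Their mean scores were low, with 2.24 for the highest. AT5G19090 and AT5G19100 enclosed the remaining 3-site gap, at 2.06 to 2.66. Pairs of sites stood between BIM1, a partner of brassinosteroid factors, and AT5G08139 (mean scores 2.21 and 2.84), and between AT1G55360 and AT1G55365 (2.14 and 2.21).

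Scores of distal sites were compared with those of the other 641 recurrent sites within each list. The median was 2.31 for distal against 2.26 for other sites in replicate 1, 2.40 against 2.28 in replicate 2, and 2.63 against 2.49 in replicate 3. Distal sites were thus higher in 3 of 3 lists, by 0.10 ± 0.05 score units on average (SD, n = 3 lists; exact sign-flip permutation test over lists, two-sided, p = 0.25, the smallest that 3 lists allow). The quartiles overlapped widely in each list: 2.1 to 2.69 for distal against 2.09 to 2.56 for other sites in replicate 1, and 2.30 to 3.23 against 2.15 to 2.92 in replicate 3. Sites outside genes but within 1000 bp had medians of 2.26, 2.28 and 2.46, and sites inside genes 2.29, 2.29 and 2.53. The score was that of the best peak, and 48 of 228 distal sites held more than 1 peak in a list, against 87 of 641 others. The part of this in the score difference was not tested.

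Distal sites were not the highest of all. Their highest scores were 6.60, 6.53 and 8.32, against 7.84, 7.42 and 9.07 for other recurrent sites. They made up 9 of the 20 recurrent sites with the highest mean score (45.0%, Wilson interval 25.8 to 65.8%), 32 of the first 100 (32.0%, 23.7 to 41.7%) and 26.2% of all (23.4 to 29.3%). The first 20 of the single lists held 8, 10 and 10 distal sites, and the first 100 held 30, 31 and 32.

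Median peak width of distal sites was lower in 3 of 3 lists. It was 1205.5 bp for distal against 1237 bp for other sites in replicate 1, 995.5 against 1130 bp in replicate 2, and 1069 against 1202 bp in replicate 3. The mean difference was -99.7 ± 59.0 bp (SD, n = 3 lists; exact sign-flip permutation test, two-sided, p = 0.25, again the smallest possible). In replicate 1 the difference was only -31.5 bp, well inside the quartiles of 783 to 1914 bp for distal sites.

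**Figure D3:**
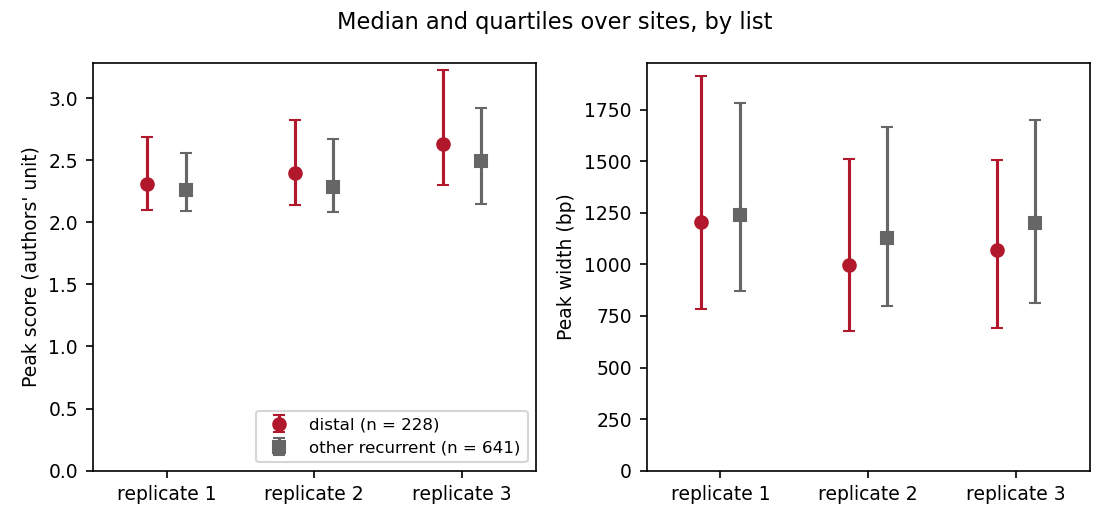
Median score (left, authors' unit) and median peak width (right, bp) of distal and other recurrent sites in each list; bars span the quartiles over sites. Distal medians are higher in score (2.31, 2.40 and 2.63 against 2.26, 2.28 and 2.49) and lower in width in every list, with broad overlap.

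Sites were chosen for overlapping peaks in the 3 lists, so that their summits had to lie near each other. The 3 summits of a distal site spanned a median of 122 bp (quartiles 56.5 and 332.5 bp, highest 3040 bp), against 117 bp for other sites (59 and 271 bp), both below the fragment length. In 180 of 228 distal sites each list had exactly 1 peak, and 48 held more, against 554 and 87 of 641 others. Where a list had more than 1 peak only its best was used, so the 3 scores can belong to different summits. Replicate 3 gave the highest score in 139 distal sites (61.0%), against 347 of 641 others (54.1%), and replicate 1 in 41 (18.0%), against 137 (21.4%). Over distal sites, which are not independent replicates, Spearman's rho between scores was 0.58 for replicates 1 and 2, 0.57 for 1 and 3 and 0.71 for 2 and 3.

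Most distal sites lay only a little beyond the limit. Distance to the nearest protein-coding gene had a median of 1653 bp and reached 7974 bp. It was up to 2000 bp in 141 sites (61.8%), over 2000 and up to 3000 bp in 53, over 3000 and up to 5000 bp in 28 and more than 5000 bp in 6. Median scores were 2.29, 2.38 and 2.62 in the nearest class and 2.34, 2.47 and 2.79 in the class over 3000 and up to 5000 bp, so they were not lower in the farther class. Just inside the limit lay a site 1002 bp from SPL8 (2.16, 1.92 and 2.21) and one 1003 bp from HB16 (2.00, 2.48 and 2.00). Just outside it were sites 997 bp from KT2/3 (2.42, 2.45 and 2.85) and 993 bp from AS1 (2.16, 2.00 and 1.92). These 4 do not set the groups apart by score.

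The farthest site of all lay 7974 bp from AT5G35405, with the salt tolerance kinase gene SOS2 on the other side at 21681 bp. It had scores of 3.61, 3.96 and 4.46 and ranked 13th of the distal sites, and the microRNA gene MIR396b lay 786 bp from its summit. A site 7829 bp from AT5G19100 had 2.63, 2.45 and 2.90. The site between TCP10, a class II TCP gene, and CLE4, a gene for a signalling peptide, stood near the middle of its gap, 7681 bp from TCP10 and 7698 bp from CLE4, with 2.81, 2.29 and 2.30. A site 5747 bp from SAHH2 had 2.76, 2.49 and 3.56, and one 5659 bp from AT5G42640 had 2.26, 1.89 and 2.36. Far sites thus included both high and low scores.

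Distal sites were spread unevenly over gaps of different length. Space more than 1000 bp from genes amounted to 29.6 Mb in 6150 gaps of over 2000 bp. Gaps of over 2000 and up to 4000 bp held 50 distal sites, or 18.5 per Mb of such space. The next classes held 77 sites in gaps up to 6000 bp (20.6 per Mb), 62 in gaps up to 10000 bp (13.3 per Mb) and 38 in gaps up to 20000 bp (7.93 per Mb). Gaps longer than 20000 bp made up 46.2% of the space, 13.6 Mb, and held 1 site, the one beside MIR396b (0.0733 per Mb). Distal sites found in a single list were also thinner in long gaps, with 25.9, 21.4, 15.2, 8.14 and 1.39 per Mb from the shortest class to the longest. Annotated pseudogenes ran the other way, at 33.8, 53.8, 79.5, 129 and 186 per Mb of gap, and their part in the result was not tested. Within its gap a site took no fixed place: on a scale from 0 at 1000 bp from a gene to 1 at the middle of the gap, the median was 0.43.

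**Figure D4:**
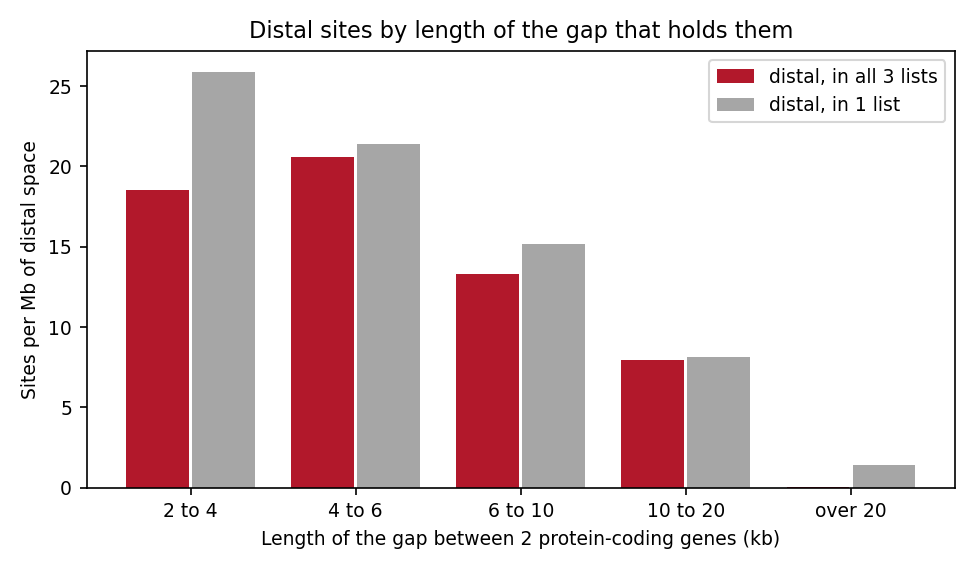
Distal sites per Mb of space more than 1000 bp from genes (vertical axis) by length of the gap between neighbouring genes (kb); dark red bars are sites of all 3 lists, grey bars sites of a single list. Both are far lower in gaps over 10 kb than in gaps up to 6 kb, and the dark red bar for gaps over 20 kb stands for 1 site (0.0733 per Mb) and is too low to be seen.

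Other kinds of annotated genes lay near some distal sites. For 176 of 228 (77.2%, Wilson interval 71.3 to 82.2%) no gene of any type lay within 1000 bp of the summit. Long non-coding RNA genes were nearest within 1000 bp for 40 sites (17.5%, 13.2 to 23.0%) and microRNA genes for 3. Among the 641 other recurrent sites they were nearest for 34 (5.30%, 3.82 to 7.32%) and 2, and protein-coding genes for 596. By definition no protein-coding gene lies within 1000 bp of a distal summit, so these shares are not like for like. The summit was inside a gene of another type in 24 cases. By chromosome, distal sites were 69 of 219 recurrent ones on chromosome 5 (31.5%, 25.7 to 37.9%) and 39 of 175 on chromosome 3 (22.3%, 16.8 to 29.0%), with the others in between and intervals that overlapped.

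MicroRNA genes with a distal site within 3000 bp numbered 8 of 303, or 2.64%, and 16 (5.28%) had another recurrent site in that distance. For protein-coding genes the background was 1.13% with a distal site within 3000 bp. By definition none of those can lie within 1000 bp, which microRNA genes can, so the shares are not like for like. Most of the 8 belong to conserved families with known targets. The share of such families among all 303 microRNA genes was not counted, so no leaning is read from this. MIR396b, whose product represses GRF growth factor genes, had the highest site (3.61, 3.96 and 4.46). MIR157c, of the family that represses SPL genes, followed with 2.87, 3.03 and 3.99 at 1826 bp, and MIR172b, whose product represses AP2 and its relatives, had 2.64, 2.72 and 2.70 at 1631 bp. The best scores at MIR172b were nearly equal in the 3 lists (SD 0.042), but they came from summits up to 1039 bp apart. Replicate 1 had its summit at 1187601, and replicates 2 and 3 had theirs at 1186562 and 1186576. At MIR157c replicate 3 stood above the others (SD 0.61).

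MIR159b, whose product acts on GAMYB-like genes, had 2.04, 2.1 and 1.92 at 1020 bp. At its site, as at that of MIR157c, the summit lay inside an annotated long non-coding RNA gene. MIR164b, whose product represses the boundary genes CUC1 and CUC2, had 2.04, 2.03 and 1.95. Its gene lay 290 bp from the middle summit of the site, that of replicate 2, but the 3 summits spanned 1422 bp. The scores at MIR159b and MIR164b were near the median of all peaks in replicates 1 and 2 and below it in replicate 3. These sites ranked 218 and 221 among the 228 distal sites. MIR169c, of a family that represses NF-YA genes, had 3.02, 3.07 and 3.30 at 765 bp, and the less conserved MIR5016 and MIR8166 had 3.29, 3.41 and 3.85 and 2.46, 2.13 and 2.44.

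Genes of 12 lists were then looked up beside distal sites. A gene was counted when it was the next protein-coding gene on either side of a site, whatever the distance. This held for 419 of 25680 genes, a background of 1.63% of tested genes, and for 4.14% of the 10114 genes with a gap of over 2000 bp beside them. In the 10 lists on cell cycle and development it held for 22 of 129 genes (17.1%), or 20.0% of the 110 with such a gap. None of 20 photosynthesis and seed storage genes was counted, but only 9 of those had such a gap. The lists were drawn up with earlier results of these data known, so these counts are no independent evidence of a preference. The 25 sites beside list genes had median scores of 2.37, 2.43 and 2.93, against 2.31, 2.38 and 2.60 for the other 203 distal sites, and their gaps had a median of 6416 bp, against 5506 bp.

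**Figure D5:**
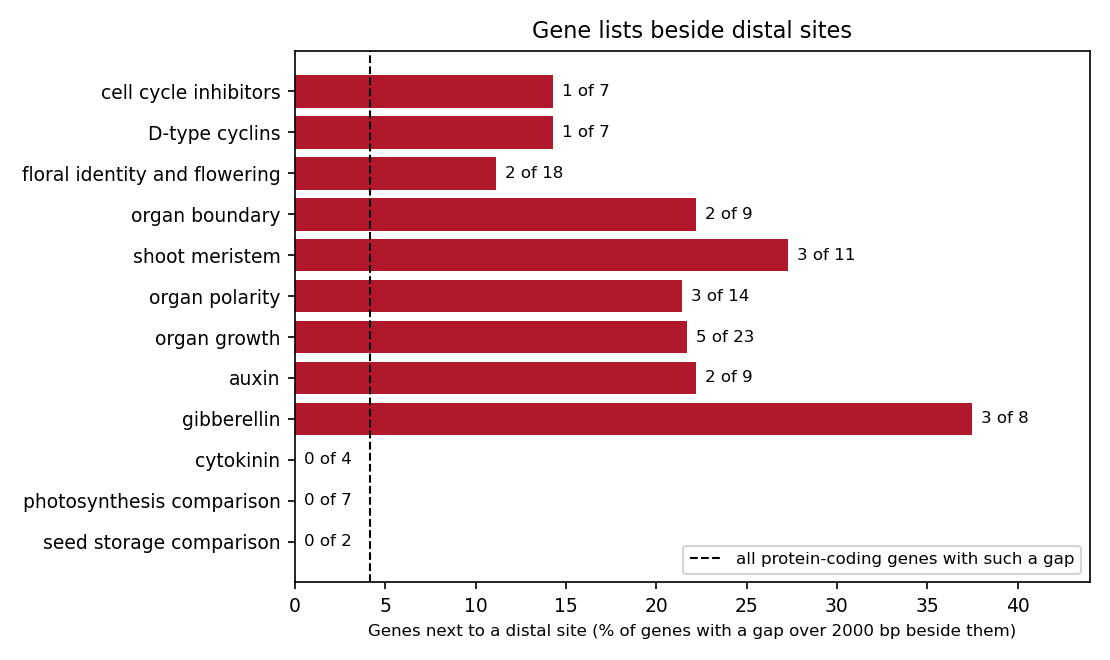
Share of the genes of each list that were next to a distal site (horizontal axis, % of list genes with a gap of over 2000 bp beside them), with counts beside the bars. The broken line is the share of all 10114 protein-coding genes with such a gap, 4.14%; gibberellin genes (3 of 8) and shoot meristem genes (3 of 11) have the longest bars, and cytokinin, photosynthesis and seed storage genes have none.

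Among cell cycle genes, 1 of 9 inhibitors (KRP2) and 1 of 8 D-type cyclins (CYCD4;1) were counted. D-type cyclins drive entry into the cell cycle. The site at CYCD4;1 had scores of 2.31, 2.34 and 2.57, far below the high site at KRP2, and HB25 was nearer to it, at 1144 bp against 2772 bp. Shoot meristem genes had 3 of 12, with KNAT1 beside KNAT6 and PRS. KNAT1, a KNOX gene that keeps meristem cells undifferentiated, was the farther neighbour of its site, at 6407 bp against 1467 bp for AT4G08160, with scores of 2.85, 2.77 and 3.30.

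Organ boundary genes had 2 of 10, BOP1 and its paralog BOP2. Around BOP2, 2 sites lay in the same gap 7408 bp apart, with 2.04, 2.31 and 3.15 at 2261 bp and 2.04, 2.43 and 2.1 at 9669 bp. The second of these was nearer to AT2G41380, at 1541 bp. Both sites were lower in every list than the site beside BOP1. Floral identity and flowering genes had 2 of 22. AP2, which specifies sepals and petals, had 2.85, 3.05 and 3.22 at 3087 bp, on chromosome 4 from 17394549 to 17400083. FUL (AGL8), a MADS-box gene of fruit and inflorescence, had 2.20, 3.41 and 3.35 at 2435 bp, with COB at nearly the same distance on the other side. Replicate 1 was low at FUL and close to the others at AP2.

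Organ polarity genes had 3 of 14. KAN1 (KAN), a factor of the lower organ side, was 7332 bp from a site with 2.42, 2.40 and 3.14, and GLN1;4 was nearer, at 2491 bp. ETT (ARF3), which acts on the same side, had 2.09, 2.42 and 2.35 at 2273 bp, and PHB, of the upper side, had 2.24, 2.18 and 2.25 at 1163 bp. These were sites of middle or low rank among the 228, at 88, 148 and 170. Their 3 summits spanned 842, 756 and 614 bp, and at PHB that of replicate 1 lay within 1000 bp of the gene. Organ growth genes had 5 of 28. GRF5, a growth-regulating factor, had the highest of them, with 3.09, 2.85 and 2.93 at 1165 bp.

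The other organ growth genes had lower sites. TCP10 was given above, and TCP2, of the same class, had 1.88, 1.98 and 2.20 at 2539 bp, with AT4G18395 nearer, at 1263 bp. SPT, which limits organ size and shapes the carpel, had 2.22, 2.07 and 2.37 at 4260 bp, with summits that spanned 1567 bp. KLU (CYP78A5), a cytochrome P450 that promotes organ growth, had 2.37, 1.94 and 2.30 at 3805 bp, with AT1G13730 nearer. By mean score, TCP2 was the lowest of them, at 2.02.

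Hormone genes made up the rest. Auxin genes had 2 of 10, WES1 and PID. PID, a kinase that directs auxin export, had 1.93, 2.45 and 2.42 at 1865 bp, several units below the site at WES1. Gibberellin genes had 3 of 10. The growth repressor GAI had 2.37, 3.51 and 3.70 at 3215 bp, with AT1G14910 nearer, at 2032 bp. The related RGA (RGA1) had 2.32, 2.16 and 2.66 at 1566 bp. GA20OX2, an enzyme of gibberellin synthesis, had 2.58, 2.30 and 2.65 at 4868 bp, with the gene PGM nearer. Replicate 1 was more than 1 unit below the other lists at GAI, which was not so at RGA and GA20OX2. At RGA and GA20OX2, as at KNAT1, CYCD4;1 and the far KRP2 site, the summit lay inside an annotated long non-coding RNA gene. Cytokinin genes had 0 of 6, of which 4 had a gap of over 2000 bp beside them.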

How the data were processed

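Chromatin immunoprecipitation with sequencing compared 3 JAG-GFP with 3 wild-type samples, and 3 peak lists, 1 per replicate number, were used. Per the file headers, each peak has a chromosome, start, end, width, summit and a score that the authors deposited; the sources used here do not name its scale, the peak caller, the threshold or the control of each list. CASAVA 1.8 and TAIR10 come from the submitters' processing notes, with no role given. Read depth is unknown, so no detection limit is given and intervals cover counting error only. With Python 3.11.15, pandas 2.3.3 and scipy 1.17.1, peaks overlapping by at least 1 bp were merged across lists. Gene names and distances came from 27444 nuclear protein-coding genes of the RefSeq table of TAIR10.1 (25680 outside the end of chromosome 1), of which no coordinates are printed. All 168 list loci were found, and 149 could be tested. Sequence under the peaks was not analysed here, although planned. Merging and placing were tested on simulated peaks. Members and lists were chosen with earlier results of these data known. Sites named are the 20 highest by mean score, those next to a list gene and those within 3000 bp of a microRNA gene. They also include the 5 farthest from genes, those in the 5 gaps with most sites and those at the 1000 bp limit. Gaps with 2 sites tied, and the shortest of them were taken. Averages over lists assume a common scale, and 11 alternatives were tried.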

Additional observations from a re-analysis of the deposited data

Results flagged for a closer look

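Beyond position 23827070 of chromosome 1, replicate 3 has no peak, whereas replicates 1 and 2 have 244 and 183. These entered no comparison of 3 lists. They formed 114 sites common to both lists, of which 24 (21.1%, 95% Wilson interval 14.6 to 29.4%) were distal. The highest lay between AT1G76570 and AT1G76580 (28732643 to 28734290, scores 3.42 and 4.41 in replicates 1 and 2). The next stood between AT1G66345 and RGL1, a growth repressor related to GAI and RGA (24743628 to 24744615, 3.34 and 4.14). Whether replicate 3 lacks signal there or its list does not cover the stretch cannot be told apart.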

How the results depend on the processing

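Distal scores stayed above and distal widths below those of other recurrent sites on average over lists under all 11 alternatives (0.0783 to 0.223 score units and -176.5 to -60.3 bp), and the exact permutation p stayed at 0.25 or above, which says nothing about stability with so few lists. The number of sites followed the definitions. A limit of 500 bp gave 378 sites (43.5% of recurrent ones), 2000 bp gave 87 (10.0%) and 3000 bp gave 34 (3.91%). The highest-scoring 50% of each list left 145 sites, and a peak in 2 of 3 lists sufficing gave 372 (22.1%). Distance from genes of every type left 176 (20.3%). Overlap of 50% of the shorter peak and the middle of the region as summit kept 221 and 189 of the 228. Without each replicate in turn there were 267 to 289 sites (23.8 to 24.8%), and 216 to 221 of the 228 were kept. The first 20 sites stayed distal in these 3 settings. The limit of 1000 bp is thus a choice: at 2000 bp 10 of the first 20 sites and 11 of the 25 beside list genes were left, and at 3000 bp 3 and 4. The sites next to WES1, KNAT6 and KRP2, of ranks 1, 3 and 4, were among those lost at 2000 bp. No paired analysis was possible because the lists give 1 value per replicate number and none for JAG-GFP and wild type apart.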

Other observations

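Pairs of distal sites also stood in other gaps, which were picked out after their values were seen. The gaps beside KNAT4 and BLH1 were bounded by a homeobox gene outside the lists. Between MYB64 and KNAT4, a class II KNOX gene, one site had scores of 3.32, 2.93 and 3.84 in replicates 1, 2 and 3 at 4412 bp from KNAT4 and 1587 bp from MYB64, just below the first 20. The other, 1204 bp from KNAT4, had 2.51, 2.97 and 3.25. Between BLH1, a BELL homeobox gene whose kind of protein pairs with KNOX proteins, and EDA12, sites had 2.69, 2.38 and 2.77 at 7923 bp from BLH1 and 2.44, 2.04 and 2.77 at 11101 bp, and both were nearer to EDA12, at 4378 and 1200 bp. Between HXK1, a glucose-sensing hexokinase gene, and ADS1, sites had 2.71, 2.39 and 2.80 at 3884 bp from HXK1 and 2.47, 3.28 and 3.73 at 4487 bp from ADS1. In the gap between SYD and LOG1, a second site with 1.98, 2.33 and 2.00 lay 1734 bp from the high one.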
